A study of Mus musculus with 6 samples.

Results

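Tc2n, Ttyh1, Fbln5, Dapk2, Lrg1 and C1ql4 are 6 of the 24421 genes counted in endothelial cells (ECs) in which Dot1l was deleted or overexpressed. They were chosen by name because their counts were lower after Dot1l overexpression in both blood ECs (BECs) and lymphatic ECs (LECs). The values of the overexpression comparisons therefore describe the genes and test nothing about them, while the values from embryonic skin and the features of the genes themselves were not used to choose them. Dot1l encodes the methyltransferase that places methyl groups on lysine 79 of histone H3. A yolk sac BEC line (CRL-2581) and dermal LECs in culture (C57-6064L), both from mouse embryos, received a lentivirus with dCas9 fused to VP64 and guide RNAs for the Dot1l promoter (OE-BECs and OE-LECs), or empty lentivirus (Cont BECs and Cont LECs), and EGFP-positive cells were sorted. Skin BECs came from E15.5 embryos, either Tie2-Cre(+) with both Dot1l alleles floxed (cKO) or Tie2-Cre(-) with the same floxed alleles (skin Cont), the latter labelled wild type. The Cre is driven by Tie2, which is also active in blood cells, and the skin BECs were isolated as negative for F4/80, CD45 and Lyve1 and positive for the endothelial marker CD31. Each of these 6 groups is 1 library, made from pooled RNA of 2 to 3 embryos or from 2 to 3 flasks, so no difference has a replicate check and no test of a condition was possible.

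The 6 genes have different roles. Fbln5 encodes fibulin-5, a secreted glycoprotein that organizes elastic fibres and binds integrins on vascular cells. Lrg1 encodes a secreted leucine-rich glycoprotein that acts on the TGF-beta co-receptor endoglin and is induced through IL-6 and STAT3, and C1ql4 encodes a secreted protein with a C1q domain that binds the adhesion receptor Adgrb3. Ttyh1 encodes a membrane protein of the tweety family, Dapk2 a calcium- and calmodulin-dependent death-associated protein kinase, and Tc2n a protein with tandem C2 domains. All are protein-coding genes in the GENCODE annotation of mm10.

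The libraries held 8863349 to 31032461 reads. Dot1l itself was counted with 1972 (Cont) and 4208 (OE) reads in the BEC pair, 2490 and 6720 in the LEC pair, and 762 (Cont) and 944 (labelled cKO) in skin. In normalized counts (reads divided by the size factors of the pair) Dot1l was 2.78-fold higher in OE-BECs and 2.30-fold higher in OE-LECs, and its log2 ratio in cKO over skin Cont was -0.07 (95% interval -0.21 to 0.07). The count covers the whole gene and does not separate the floxed part, so it does not check the deletion, and "the library labelled cKO" is used below. The paper reports a check of the knockout by RT-qPCR, which is not part of these counts. All 11 pan-endothelial markers had reads in every library. The 8 lymphatic markers gave a mixed picture. Lyve1 had 52184 and 60898 reads in the LEC pair against 10680 and 14786 in the BEC pair. Flt4 had 2785 and 4038 reads in the LEC pair and 2552 and 1369 in the BEC pair, Nrp2 had 5232 and 7646 against 3480 and 2845, and Pdpn, Reln and Mmrn1 had 0 to 5 reads in every cultured library. These are raw reads, and the LEC libraries were deeper (26117161 and 31032461 reads in total, against 17685615 and 13933651 in the BEC pair). The higher reads of Flt4 and Nrp2 in Cont LECs than in Cont BECs therefore do not show higher levels. Prox1, the defining transcription factor of LECs, had no read in any cultured library. In the Lyve1-depleted skin BECs, Prox1 had 1304 (Cont) and 883 (labelled cKO) reads and Lyve1 9105 and 19959, which goes against that depletion. Ccl21a had no read in any of the 6 libraries. The cultured libraries held few reads of fibroblast and pericyte markers, with 4.98 to 24.0 summed counts per 1000000 reads (CPM) over 10 genes, against 2939 in skin Cont BECs.

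Fbln5 and Tc2n had the highest levels of the 6 genes in every library, also per kilobase of exon. For Fbln5, control and overexpressing BECs gave 12694 and 1458 reads, control and overexpressing LECs 6441 and 1571, and the skin libraries 983 (Cont) and 852 (labelled cKO). Its level was 718 CPM in Cont BECs, the highest of the 6 libraries, and 50.6 CPM in OE-LECs, the lowest. OE-BECs at 105 CPM and skin Cont BECs at 111 CPM overlapped in their 95% Poisson intervals, while all other neighbours in the order stood apart. Fbln5 was 6.68-fold lower in OE-BECs, a log2 ratio of -2.74 (exact 95% interval from the reads of both libraries -2.82 to -2.66), and 4.81-fold lower in OE-LECs, a log2 ratio of -2.27 (interval -2.35 to -2.19). These intervals, and all others below, cover counting error only and not variation between embryos, flasks or transductions, since each group is 1 library. Several reads can be PCR copies of 1 molecule, so the intervals may be too narrow even for counting error.

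For Tc2n, control and overexpressing BECs gave 7717 and 739 reads, control and overexpressing LECs 2438 and 274, and the skin libraries 1009 (Cont) and 535 (labelled cKO). The range ran from 436 CPM in Cont BECs to 8.83 CPM in OE-LECs. Skin Cont BECs (114 CPM) lay above Cont LECs (93.3 CPM), and OE-BECs (53.0 CPM) and the library labelled cKO (48.3 CPM) overlapped. Tc2n was 8.01-fold lower in OE-BECs, where the interval of the log2 ratio ran from -3.11 to -2.89, and 10.4-fold lower in OE-LECs, where the log2 ratio was -3.38 (-3.57 to -3.20). It was the only one of the 4 better-covered genes with the larger ratio in LECs. Its log2 ratio in BECs minus that in LECs was 0.38 (interval 0.17 to 0.60).

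Fbln5 and Tc2n are direct neighbours. Tc2n spans chr12:101645443-101718523 and Fbln5 chr12:101746565-101819055 of mm10, both on the minus strand, with 28041 bases between them and 100532 bases between their 5' ends. Trip11, a Golgi-associated protein gene on the far side of Fbln5, had 4146 and 2803 reads in the BEC pair (log2 ratio of normalized counts -0.18) and 2356 and 2827 in the LEC pair (0.03), and was not called in either. Catsperb on the far side of Tc2n had 15 and 3 reads in BECs, where it was called lower (3.83-fold), and 0 and 1 in LECs. The pair did not keep a constant proportion either. There were 1.03 reads of Tc2n per read of Fbln5 in skin Cont BECs, 0.628 in the library labelled cKO, 0.608 and 0.507 in the BEC pair (Cont, then OE) and 0.379 and 0.174 in the LEC pair.

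Promoter sequences, from 250 bases before to 50 bases after the RefSeq gene start (GRCm38.p6), are shown for this pair, for Dapk2 with the most GC boxes and for Lrg1 with the TATA box, on the strand of each gene and read from the 5' end. The RefSeq table lists 2 promoters each for Tc2n and Fbln5, and only the one nearest the annotated gene start was searched. Capitals mark every match to 10 short motifs searched on both strands, and no matches overlapped. TATAAA stands for the box that can position the start of transcription. CCAAT is a promoter element bound by the factor NF-Y. GGGCGG, the GC box, is bound by Sp factors. CACCC is the core of sites bound by Kruppel-like factors. The other motifs were CGGAAG as the core used for ETS factors, then AGATAA as that used for GATA factors, then TGANTCA as that used for AP-1, then TTCNNNGAA as that used for STAT factors, then GGAATG as that used for TEAD factors and then ACAAAG as that used for SOX factors. The windows are chr12:101718474-101718773 (minus) for Tc2n, chr12:101819070-101819369 (minus) for Fbln5, chr9:66157976-66158275 (plus) for Dapk2 and chr17:56121897-56122196 (minus) for Lrg1.
Tc2n: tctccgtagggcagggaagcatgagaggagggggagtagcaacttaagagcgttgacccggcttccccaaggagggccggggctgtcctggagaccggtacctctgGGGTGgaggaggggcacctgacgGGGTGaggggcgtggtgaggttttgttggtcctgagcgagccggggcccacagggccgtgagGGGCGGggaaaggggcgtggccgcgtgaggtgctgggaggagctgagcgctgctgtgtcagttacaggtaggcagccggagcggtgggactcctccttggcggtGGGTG
Fbln5: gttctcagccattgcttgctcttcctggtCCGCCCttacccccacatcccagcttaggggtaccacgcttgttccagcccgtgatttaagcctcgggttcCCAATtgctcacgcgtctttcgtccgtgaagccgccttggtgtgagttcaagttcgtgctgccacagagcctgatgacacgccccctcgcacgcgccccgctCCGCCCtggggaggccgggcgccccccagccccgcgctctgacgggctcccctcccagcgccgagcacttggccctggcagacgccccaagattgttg
Dapk2: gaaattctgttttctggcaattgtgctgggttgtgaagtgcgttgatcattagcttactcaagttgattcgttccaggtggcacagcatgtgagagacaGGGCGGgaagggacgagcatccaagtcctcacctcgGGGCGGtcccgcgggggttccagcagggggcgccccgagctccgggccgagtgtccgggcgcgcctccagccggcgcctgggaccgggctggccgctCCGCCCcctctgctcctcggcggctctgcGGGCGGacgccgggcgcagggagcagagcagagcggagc
Lrg1: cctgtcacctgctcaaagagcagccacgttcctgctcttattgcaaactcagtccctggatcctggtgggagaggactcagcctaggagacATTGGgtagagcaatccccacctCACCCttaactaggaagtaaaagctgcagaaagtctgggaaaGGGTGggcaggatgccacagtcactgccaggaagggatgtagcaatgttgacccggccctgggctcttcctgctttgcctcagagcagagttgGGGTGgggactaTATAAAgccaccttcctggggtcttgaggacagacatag

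The promoters of 5 of the 6 genes were rich in G and C, with 63.3% in Ttyh1, 65.7% in Fbln5, 67.7% in Tc2n and in Dapk2 and 70.0% in C1ql4, against a median of 52.7% over the 32851 promoters of the table. The upper quartile over all promoters was 61.7%. These 5 promoters held 14 to 28 CpG dinucleotides, against a median of 7 over all promoters (quartiles 3 and 20). Ttyh1 with 14 and Tc2n with 18 lay between these quartiles. Lrg1 differed, with 54.7% and 2 CpG, the latter just under the lower quartile. The GC box matched in Tc2n, Ttyh1, Fbln5 and Dapk2, which had 1, 1, 2 and 4 matches, and 35.7% of all promoters hold it. The CACCC box matched in Tc2n, Ttyh1, Lrg1 and C1ql4, against 57.5% of all promoters, and the CCAAT box in Ttyh1, Fbln5 and Lrg1, against 37.4%. The TATA box matched in Lrg1, where it begins 11 bases after the RefSeq start, against 13.6%. None of the 6 windows held the ETS, GATA, AP-1, STAT, TEAD or SOX letters, which are in 16.9%, 11.2%, 7.81%, 8.30%, 14.7% and 18.7% of all promoters. This says only that these letters are not in these windows, and a match is not a site shown to be bound.

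Ttyh1 and Dapk2 had intermediate levels. For Ttyh1, control and overexpressing BECs gave 1772 and 108 reads, control and overexpressing LECs 501 and 110, and the skin libraries 60 (Cont) and 163 (labelled cKO). Cont BECs at 100.2 CPM stood far above Cont LECs at 19.2 CPM, and OE-BECs (7.75 CPM) overlapped with skin Cont BECs (6.77 CPM). Ttyh1 was 12.6-fold lower after overexpression in BECs, a log2 ratio of -3.65 (-3.95 to -3.37), and 5.34-fold lower in LECs, a log2 ratio of -2.42 (-2.73 to -2.12). The ratio in BECs was lower than that in LECs by more than counting error, with a difference of -1.23 (interval -1.66 to -0.81). The antisense gene D030047H15Rik overlaps Ttyh1 and had 32 and 3 reads in the BEC pair and 7 and 1 in the LEC pair. The counting used the -S option of VERSE, and whether it took strand into account is not given in the sources used here, so reads of the 2 genes cannot be told apart where they overlap.

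For Dapk2, control and overexpressing BECs gave 581 and 69 reads, control and overexpressing LECs 130 and 40, and the skin libraries 29 (Cont) and 40 (labelled cKO). Apart from Cont BECs at 32.9 CPM and OE-LECs at 1.29 CPM, its 4 other libraries lay between 3.27 and 4.98 CPM and neighbours among them overlapped. Dapk2 was 6.46-fold lower after overexpression in BECs, a log2 ratio of -2.69 (-3.07 to -2.33), and 3.81-fold lower in LECs, a log2 ratio of -1.93 (-2.48 to -1.41). The log2 ratios differed by -0.76 between the lines (interval -1.41 to -0.09), and for Fbln5 by -0.47 (interval -0.59 to -0.36).

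Lrg1 and C1ql4 were counted on few reads. For Lrg1, control and overexpressing BECs gave 17 and 3 reads, control and overexpressing LECs 10 and 0, and the skin libraries 16 (Cont) and 9 (labelled cKO). It was the one gene of the 6 with its highest level, 1.81 CPM, in skin Cont BECs, and all neighbours in its order overlapped. Lrg1 was 4.35-fold lower in OE-BECs, with an interval of the log2 ratio of -4.53 to -0.33. In OE-LECs it was 3.91-fold lower with its 0 reads set to a floor of 3 reads. The upper limit of the log2 ratio there was -1.40, so the counts also allow a smaller fall. With no read of 31032461, the floor of 3 reads lies at 0.0967 CPM and the 95% Poisson interval of the level reaches 0.119 CPM. For C1ql4, control and overexpressing BECs gave 72 and 1 reads, control and overexpressing LECs 10 and 1, and the skin libraries 0 (Cont) and 3 (labelled cKO). Cont BECs at 4.07 CPM stood apart from the other libraries, which overlapped with their neighbours in the order. C1ql4 was 55.2-fold lower in the BEC pair, with a log2 ratio of -5.79 (-11.1 to -3.26), and 11.7-fold lower in the LEC pair, with a log2 ratio of -3.55 (-8.99 to -0.74), and with a single read in each OE library the size of these ratios is not well known.

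**Figure D1:**
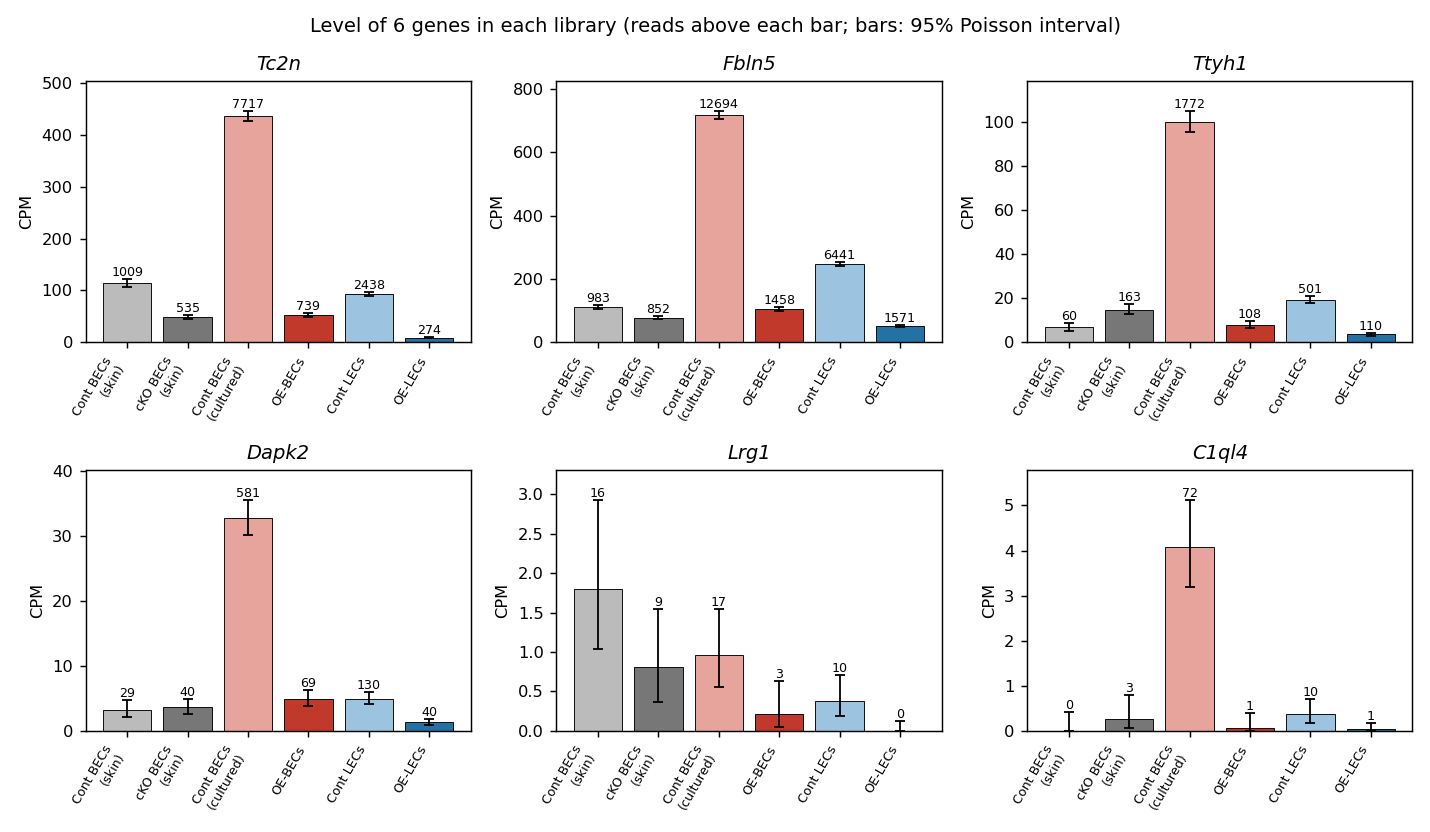
Level of each of the 6 genes in counts per 1000000 reads (CPM, linear axis from 0) in the 6 libraries, 1 library per group, with the 95% Poisson interval and the reads above each bar. Cont BECs hold the highest bar for all genes but Lrg1, and the OE bar is below its own control for every gene.

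Cultured Cont BECs had higher levels of all 6 genes than Cont LECs. With size factors from the 4 cultured libraries, the ratio of Cont BECs to Cont LECs was 5.12 for Tc2n, 5.72 for Ttyh1, 3.19 for Fbln5, 7.23 for Dapk2, 2.75 for Lrg1 and 11.6 for C1ql4. Of the 14673 genes with a mean of at least 0.5 CPM over the 6 libraries, 41.5% were higher in Cont BECs in CPM, and of the 80 genes lower in both overexpressing lines 70 were. These controls are the libraries against which the genes were chosen as lower, so the comparison is not independent of the choice. Between OE-BECs and OE-LECs the ratio was 6.86 for Tc2n, 2.50 for Ttyh1, 2.36 for Fbln5 and 4.39 for Dapk2.

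By the rule of the study for overexpression (the larger normalized count is 3 or above, and exceeds the smaller by more than 3-fold), all 6 genes were called lower in OE-BECs, where 5.27% of 14792 genes reaching that minimum were, and in OE-LECs, where 2.09% of 13883 were. Both calls together were made for 80 genes, 0.599% of 13362. Because the 6 genes were chosen on these libraries, nothing is read from their share. Their median log2 ratio was -2.87 in OE-BECs and -2.34 in OE-LECs, with the 0 reads of Lrg1 in OE-LECs set to the floor. With 1 added to normalized counts it was -2.87 and -2.51, while the median over all genes with a mean of at least 0.5 CPM was 0 in both. With a minimum of 20 normalized counts, Lrg1 was not called in either line and C1ql4 not in OE-LECs. Other values moved between the same libraries, and their part in these ratios was not tested. Rn45s, the ribosomal RNA precursor, made up 5.91% (Cont) and 10.9% (OE) of reads in the BEC pair, and 0.0534% and 0.0632% in the LEC pair. Of 10 blood endothelial markers, 7 were lower and 3 higher in OE-BECs in normalized counts, with Flt1, Vwf, Aqp1 and Gpihbp1 called lower, and Sele (2.53-fold), Cd34 (1.72-fold) and Nos3 (1.04-fold) higher and not called. In the LEC pair 6 were lower, Vwf and Gpihbp1 called, and 4 higher. The list summed to 2999.8 (Cont) and 2571 (OE) CPM in the BEC pair, and to 3869 (Cont) and 3978 (OE) CPM in the LEC pair. Of 11 pan-endothelial markers, 10 were lower in OE-BECs and 9 in OE-LECs, with a median log2 ratio of -0.30 and -0.21, and Cldn5 alone was called, in OE-BECs.

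**Figure D2:**
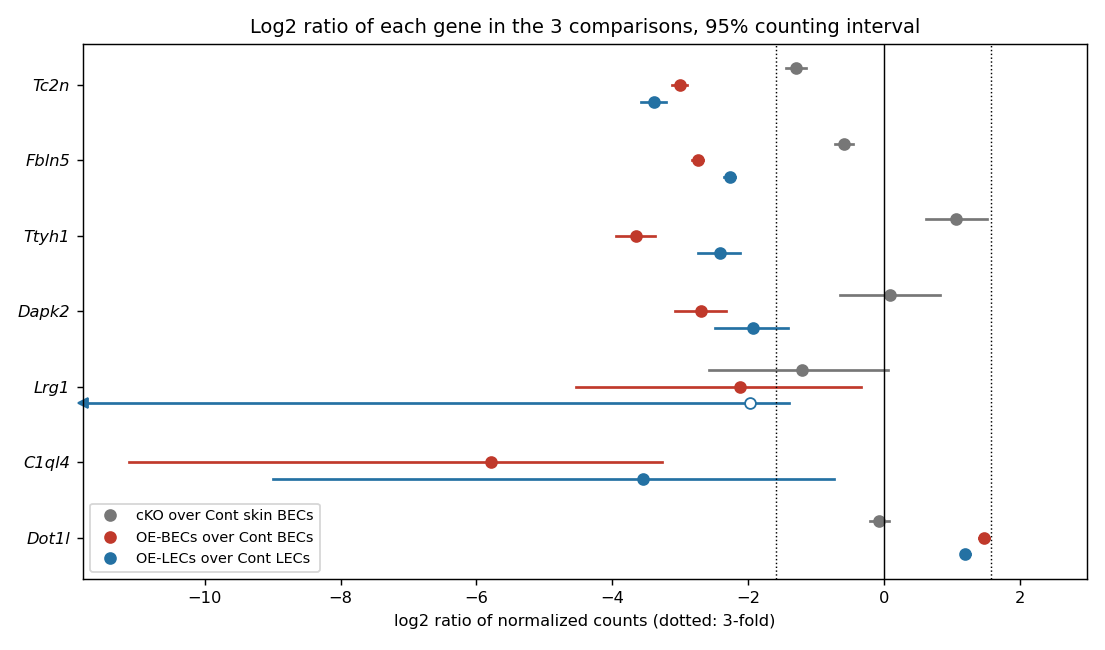
Log2 ratio of normalized counts for the 6 genes and Dot1l in the 3 comparisons, with exact 95% counting intervals (an open circle is a ratio with 0 reads set to 3, an arrow an interval without a lower end, dotted lines 3-fold). All OE points of the 6 genes lie left of 0, Dot1l lies right of 0 in both lines, and the cKO points lie on both sides; C1ql4 has no cKO point.

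Of the 80 genes, 21 reached 100 normalized counts in both lines in the library where they were higher, and 4 of these 21 are Tc2n, Ttyh1, Fbln5 and Dapk2. The other 17 were Kit, Ednrb, Trp53i11, Tspan18, Sox18, Mmp15, F8, Dclk1, Vwf, Nrep, Gpihbp1, Ldb2, 4930578C19Rik, Stab2, Clca2, Kcnj2 and Myzap. They include genes known from endothelium, such as Sox18, a transcription factor of vascular and lymphatic development, Vwf and F8, which encode clotting proteins, and Gpihbp1, which carries lipoprotein lipase across capillary cells. Ordered by log2 ratio after adding 1 to normalized counts, Tc2n was at place 1 of 21 in OE-LECs and 6 in OE-BECs, and Ttyh1 at place 5 and 2. Fbln5 was at place 6 and 8, and Dapk2 at place 9 in both.

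**Figure D3:**
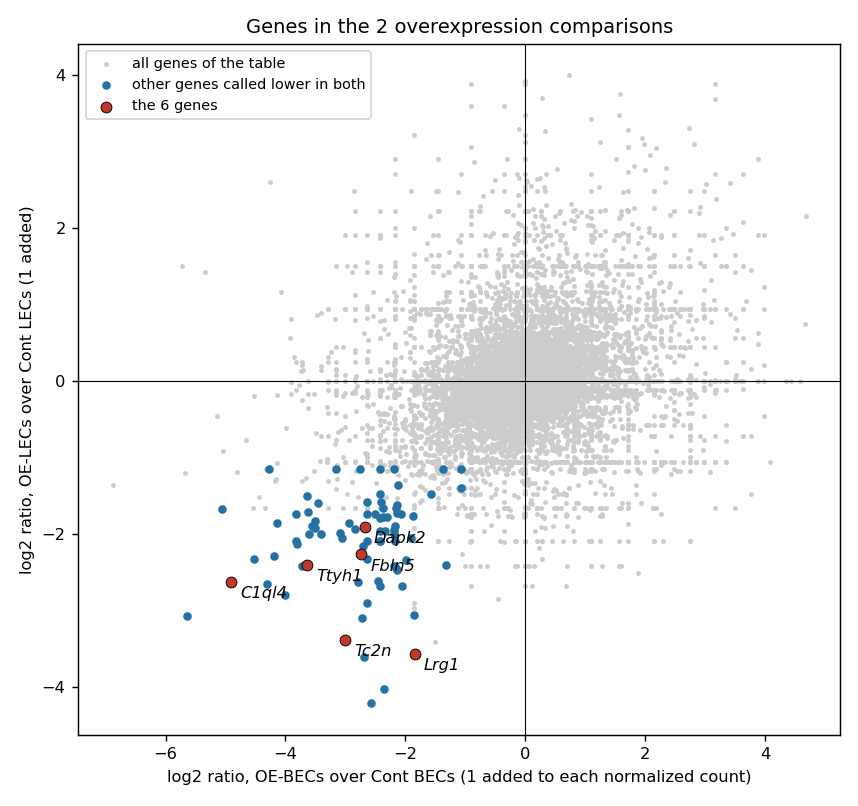
Log2 ratio in OE-LECs against that in OE-BECs, with 1 added to each normalized count, for all 24421 genes (grey), the other genes called lower in both lines (blue) and the 6 genes (red). All 6 lie below 0 on both axes, with C1ql4 lowest in OE-BECs and Lrg1 and Tc2n lowest in OE-LECs.

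The embryonic skin libraries were not used to choose the genes. None of the 6 was called in the library labelled cKO (the same rule with a minimum of 5), where 2.41% of 15993 genes were called lower and 5.17% higher. C1ql4 did not reach the minimum, and with these shares a count of 0 of the other 5 is no result about them. Tc2n was 2.45-fold lower in the library labelled cKO, where the log2 ratio reached -1.29 (-1.45 to -1.14). Fbln5 was also lower beyond its interval, at -0.58 on the log2 scale (-0.72 to -0.45). Lrg1, with 16 and 9 reads, had a log2 ratio of -1.21 (interval -2.57 to 0.06), which reaches past 0. Ttyh1 alone was higher beyond its interval, 2.09-fold, from 60 to 163 reads, at 1.06 on the log2 scale (0.63 to 1.52). Dapk2 had a log2 ratio of 0.09 (interval -0.64 to 0.83), so a difference was not detectable at this depth, and C1ql4 was at or under 3 reads in both libraries. With more than 2-fold in place of 3-fold, Tc2n and Lrg1 would be called lower, as 5.23% of all genes were, and Ttyh1 higher, as 10.4% were. With 1 added to normalized counts, the median of the 6 genes was -0.25, with 3 lower and 3 higher, against -0.0056 over all genes with a mean of at least 0.5 CPM. Without it, the median of the 5 genes with a ratio was -0.58.

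Markers of several cell types had reads in these skin libraries despite the CD31-positive isolation and moved between them as well, and their part in these values was not tested. The 11 pan-endothelial markers summed to 6361 CPM in skin Cont BECs and 4124 CPM in the library labelled cKO, with 9 of 11 lower in normalized counts, and the 10 blood endothelial markers to 3011 and 1983 CPM with 9 of 10 lower, beside the lower Tc2n and Fbln5. The 10 fibroblast and pericyte markers, cells in which Fbln5 is also known, went from 2939 to 2198 CPM with 9 of 10 lower. The 8 Schwann and neural crest markers summed to 98.9 and 154 CPM with 8 of 8 higher, beside the higher Ttyh1, and the 12 macrophage and granulocyte markers to 1243 and 2198 CPM with 10 of 12 higher. The 8 keratinocyte markers summed to 242 and 382 CPM with 5 of 8 higher, and Krt1 (5.92-fold) and Krt10 (3.97-fold) were called higher. Among the other lists, the granulocyte marker Csf3r (30 and 117 reads) was called higher. The blood endothelial marker Sele (163 and 20 reads) and the granulocyte marker S100a8 (11 and 4 reads) were called lower. Of all genes, 5.17% were called higher and 2.41% lower in this comparison. None of the markers of these lists was at 0 in either skin library. In such bulk libraries fewer cells of a type and less RNA per cell cannot be told apart. In the cultured pairs the fibroblast and pericyte, Schwann and neural crest, keratinocyte, and macrophage and granulocyte lists each summed to less than in either skin library, and Rgs5, a pericyte marker, and the macrophage markers Adgre1, C1qa, C1qb and C1qc had no read in any of the 4 libraries. The 11 pan-endothelial markers reached 8868 (Cont) and 5764 (OE) CPM in total in the BEC pair, and 7555 and 6700.4 in the LEC pair.

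The families and pathways of the 6 genes were set beside them, from lists of named genes. Of 22 other elastic fibre genes, 14 reached the minimum in OE-BECs and 12 in OE-LECs. Of these, 1 was called lower and 2 higher in OE-BECs, where 5.27% of all genes reaching it were called lower and 8.02% higher, and none in OE-LECs, where 2.09% were called lower and 2.77% higher. Fbln2, another fibulin, had 1628 and 112 reads in the BEC pair and was 11.1-fold lower, but 145 and 311 reads in the LEC pair, where it was 1.83-fold higher and not called. Ltbp1, which tethers latent TGF-beta to the matrix, was 3.62-fold higher in OE-BECs (509 and 1414 reads). Eln, which encodes elastin, had only 13 and 25 reads in the BEC pair (2.51-fold higher after normalization) and 32 and 44 in the LEC pair (1.17-fold), and Lox, which crosslinks it, had none in any cultured library. The list had a median log2 ratio of 0 in OE-BECs and 0.19 in OE-LECs with 1 added to each normalized count, and -0.04 in the library labelled cKO. In that skin comparison 12 were lower and 10 higher. Eln was 2.97-fold lower (986 and 432 reads) and Emilin2 2.85-fold higher (444 and 1644 reads), both under the 3-fold of the rule.

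Of 17 kinases and calmodulins related to Dapk2, 15 reached the minimum in each line. Of these, none was called lower in either line and Camkk1, an upstream calmodulin-dependent kinase, was called higher in OE-BECs (12 and 79 reads, 8.58-fold), which is close to the shares over all genes given for the elastic fibre list. The closest relatives had other values than Dapk2. Dapk3 had 783 and 639 reads in the BEC pair and 1124 and 1401 in the LEC pair, which after normalization is a log2 ratio of 0.09 in each, and Dapk1 had 0 and 1 and then 0 and 2. The medians of this list were 0.16 in OE-BECs and 0.11 in OE-LECs. For Ttyh1, none of 7 tweety and volume-regulated anion channel genes was called in any comparison, and with shares over all genes of 2.09% to 8.02% a count of 0 is no result about so few genes. Ttyh3 had 1267 and 1069 reads in the BEC pair (log2 ratio of normalized counts 0.14) and 2726 and 2928 in the LEC pair (-0.13). Ttyh2 had 48 and 46 (1.25-fold higher after normalization) and then 73 and 129 (1.51-fold higher).

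Of 26 genes of tandem C2 domain proteins, which bind membranes and often calcium, 17 reached the minimum in OE-BECs, where 4 were called lower and 3 higher, and 12 in OE-LECs, where 0 were called lower and 3 higher. The shares over all genes reaching it called lower and higher were 5.27% and 8.02% in the BEC pair, against 2.09% and 2.77% in the LEC pair. Syt13 was the best-covered of them, with 1187 and 41 reads in the BEC pair (22.2-fold lower) and 1865 and 764 in the LEC pair, 2.86-fold lower and so just under the 3-fold of the rule. Syt17 was 4.36-fold higher in OE-LECs on 18 and 92 reads. The other genes of this list called in either pair had less than 20 normalized counts, so these counts of calls rest mainly on few reads. Of 25 genes of the TGF-beta, endoglin and IL-6 axis beside Lrg1, only Tgfb3, a TGF-beta ligand, was called in a cultured pair, 8.48-fold lower in OE-BECs (1239 and 112 reads), where 5.27% of all genes were called lower. Eng, which encodes endoglin, had 3644 and 2925 reads in the BEC pair (log2 ratio of normalized counts 0.07) and 6764 and 9124 in the LEC pair (0.20). Stat3 had 2609 and 1044 reads in the BEC pair (-0.94) and 2510 and 2480 in the LEC pair (-0.25). In the library labelled cKO, 2 of the 25 genes of this list, Il6 and Socs3, were called lower, beside 2.41% of all genes. Of the tandem C2 list, 4 of the 19 genes that reached the minimum there were called higher, beside 5.17% of all genes, and 0 lower. These were Sytl5, Syt8, Syt9 and Syt16, with 0 or 1 reads each in skin Cont BECs.

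The C1q-like list held 16 counted genes, among them the receptor gene Adgrb3. Of these, 6 reached the minimum in OE-BECs, where 3 were called lower and 1 higher, and 5 in OE-LECs, where 0 were called lower and 1 higher. The shares over all genes called lower and higher were 5.27% and 8.02% in the BEC pair and 2.09% and 2.77% in the LEC pair. The genes called in this list had few reads, so nothing is read from their counts. C1ql3, the best-covered relative of C1ql4, had 971 and 635 reads in the BEC pair (-0.23) and 1740 and 2122 in the LEC pair (0.06) and was not called. C1ql1, C1ql2 and the receptor gene Adgrb3 had no read in any cultured library. C1qtnf1 had 26 and 2 reads in the BEC pair, 9.97-fold lower, and 0 and 5 in the LEC pair, where the rule called it higher. In the library labelled cKO, 10 genes of the list reached the minimum. Of these, 1 was called higher, C1qtnf7 (7 and 28 reads, 3.08-fold), beside 5.17% of all genes, and 0 lower.

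The 3 nearest protein-coding genes on each side of the 6 genes gave 30 other genes of the table. In OE-BECs, 2 of the 26 that reached the minimum were called lower, and in OE-LECs 2 of 26, beside 5.27% and 2.09% of all genes. Dnajc22, a gene of the DnaJ co-chaperone family, was called lower in both lines, with 35 and 3 reads in the BEC pair (8.95-fold) and 152 and 46 in the LEC pair (3.88-fold). It lies head to head with C1ql4 on chromosome 15, with 5353 bases between the 5' ends (C1ql4, chr15:99084086-99087817, minus strand). Over the 79 of the 80 genes with a position, 5 pairs stood next to each other among the 23376 genes of the table with a position. How many such pairs 79 genes would give by position alone was not computed. The pairs were Tc2n with Fbln5, C1ql4 with Dnajc22, Ttyh1 with its antisense gene D030047H15Rik, Ednrb with 4930432J09Rik, and Trp53i11 with Tspan18. Ttyh1 and D030047H15Rik overlap, and their reads cannot be told apart there. Ttyh1 lies at chr7:4119408-4136708 (plus), 330 bases before Leng8, which had 2357 and 1414 reads in the BEC pair (1.28-fold lower after normalization) and 3702 and 3122 in the LEC pair (1.39-fold lower). Dapk2 (chr9:66158223-66272242, plus) and Lrg1 (chr17:56119678-56122001, minus) had no neighbour of the 6 called lower in both lines. Plin5, next to Lrg1, was called lower in OE-LECs on 3 and 0 reads.

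**Figure D4:**
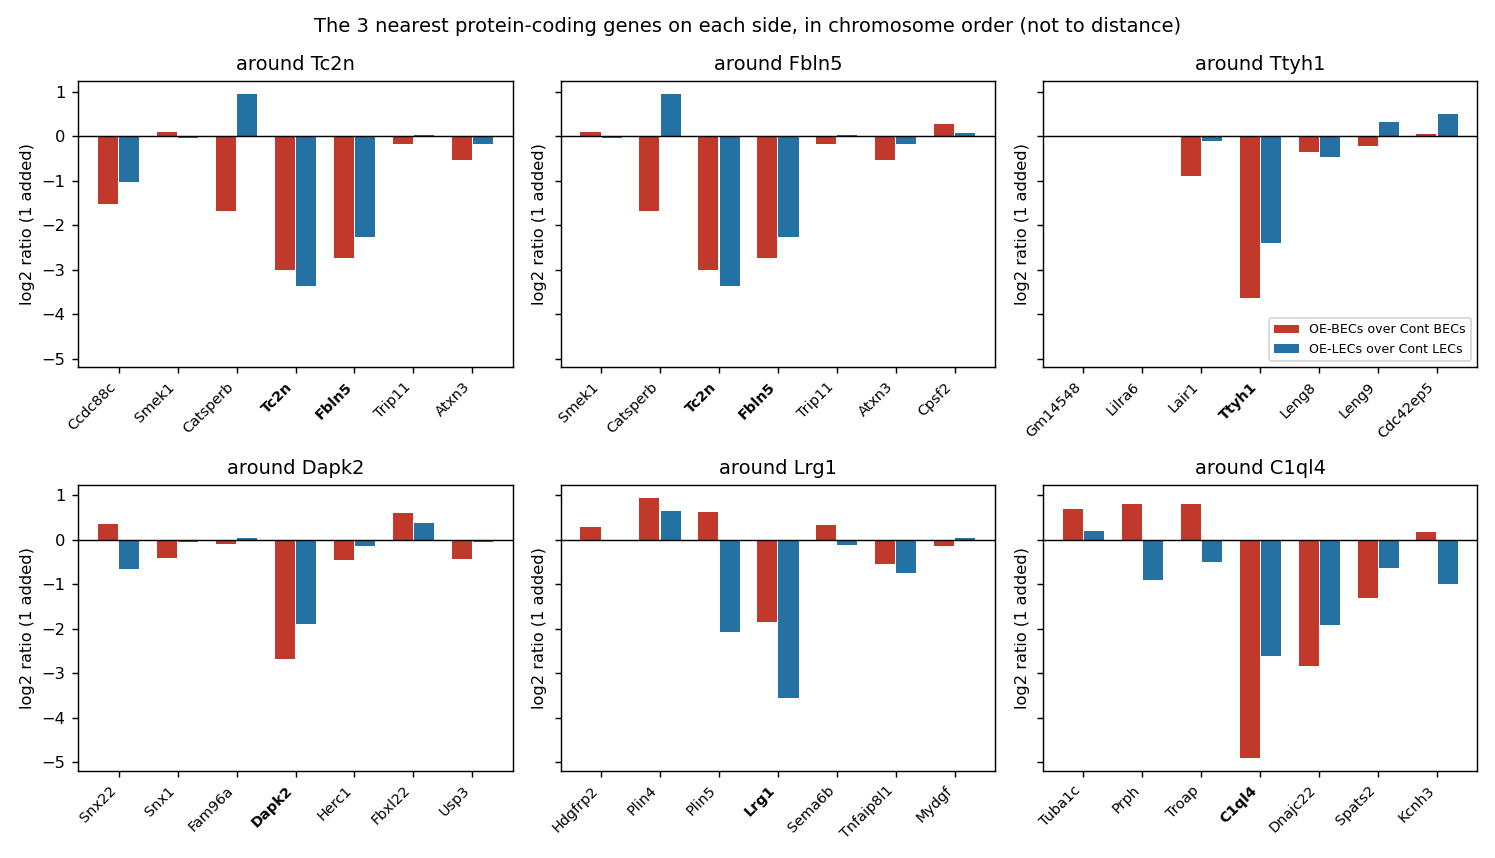
Log2 ratio, after adding 1 to normalized counts, of each of the 6 genes (bold names) and the 3 nearest protein-coding genes on each side in chromosome order, in OE-BECs (red) and OE-LECs (blue). Tc2n and Fbln5 stand together below -2 in both lines, Dnajc22 lies below 0 beside C1ql4, and genes around Dapk2 lie between -0.65 and 0.60.

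The genes with the pattern most like each of the 6 were ranked by the Euclidean distance between log2(CPM + 1) profiles over the 6 libraries, each centred on its own mean, among 13643 genes with a mean of at least 1 CPM. This uses the 4 libraries on which the genes were chosen, so that some of the 6 lie close to each other is part of the choice. Lrg1 and C1ql4, with a mean under 1 CPM, could not be named as like another gene. Under Pearson correlation none of the other 4 was among the 3 genes most like any of the 6. By distance, for Tc2n they were Fbln5 (distance 1.83), Vwf (1.85) and Dapk2 (1.97), for Fbln5 they were Dapk2 (1.05), Kcnd3 (1.14) and 4930432J09Rik (1.18), and for Ttyh1 they were Dapk2 (1.15), Sgip1 (1.20) and Fbln5 (1.32). For Dapk2 they were 4930432J09Rik (0.606), Sgip1 (0.748) and then Osbp2. For C1ql4 they were Nepn (0.357), Myo1d (0.494) and Jade1 (0.505), and for Lrg1, with the smallest range of levels, Cd93 (0.198), Cep68 (0.309) and Pcdhb7 (0.336). Distances of low genes are small because 1 is added to each CPM. Lrg1 lay at 2.07 to 3.32 from each of the other 5 genes. At its low levels, with 1 added, its profile is nearly flat, so these distances do not show a pattern of its own.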

How the data were processed

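RNA-seq libraries of 6 groups were made with ScriptSeq v2 and sequenced by the authors, who trimmed adapters with skewer, aligned the reads to mm10 with STAR, counted them per gene with VERSE and deposited raw counts for 24421 gene symbols. The gene annotation used for counting is not given in the sources used here. Counts summed to 8863349 to 31032461 reads per library. From these counts, CPM was computed with exact Poisson intervals, and normalized counts with DESeq2 1.42.0 size factors (median of ratios, R 4.3.3) from the 2 libraries of a comparison. Log2 ratios have exact (Clopper-Pearson) 95% intervals on the reads of both libraries, and differences of log2 ratios have exact conditional intervals for the odds ratio. Genes were called by the rule of the study. A library with 0 reads was set to a floor of 3 reads for a fold, and where neither library exceeds it there is no fold. No count test was run, since each group has 1 library.

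Positions and exon lengths came from GENCODE M21 and promoters from RefSeq (GRCm38.p6), and 95.7% of the symbols had a position. Symbols not found were matched through RefSeq synonyms for the neighbours only. Computations ran in Python 3.11.15 (scipy 1.17.1, pandas 2.3.3). In simulated counts for each of the 3 comparisons, 200 of 24421 genes were lowered 8-fold, and the rule recovered 200 in each. These 200 were drawn from well-covered genes only and given counting noise alone. Their recovery was therefore nearly fixed in advance, and it does not cover genes with few reads or smaller folds. Of the genes left as they were, 223 got a call in the cKO simulation, 463 in that of OE-BECs and 326 in that of OE-LECs.

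The 6 genes, the lists and the tests were chosen with earlier results of these data known. The genes named are the 6, Dot1l, list genes called in a cultured pair that reached 20 normalized counts or are closest in family, the 3 genes most like each, the nearest 3 protein-coding genes on each side, and the genes called lower in both lines that reached 100 normalized counts in each. Of these, the text gives the values of those that bear on a result, and some list genes with fewer reads were named after their values were seen. Alternatives were library totals, size factors from 6 or 4 libraries, TMM factors of edgeR 4.0.16, size factors without Rn45s and 1294 other microRNA and small structural RNA genes, a pseudocount of 1, a minimum of 20, a 2-fold threshold and Pearson correlation for likeness.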

Additional observations from a re-analysis of the deposited data

Results flagged for a closer look

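C1qtnf1, a C1q-like gene, was called in opposite directions in the 2 lines. After adding 1 to normalized counts, its log2 ratio was -2.86 in OE-BECs (26 and 2 reads) and 2.49 in OE-LECs (0 and 5 reads). Syt8, of the tandem C2 list, was also called lower in OE-BECs (4 and 1 reads) and higher in OE-LECs (1 and 4 reads). With 1 library per group, neither difference was tested. No group had enough libraries to look for a library far from the others.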

How the results depend on the processing

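No paired analysis was possible because each group is 1 library and the labels give no shared replicate numbers, and for the same reason no library could be left out. All 17 log2 ratios of the 6 genes kept their direction, and stayed within their counting interval (which for Lrg1 in OE-LECs has no lower end), under library totals, both other sets of size factors (12 ratios for that of the 4 cultured libraries), TMM factors, size factors without small RNA genes and a pseudocount of 1. The pseudocount moved the log2 ratio of Lrg1 in OE-LECs from its value at the floor of -1.97 to -3.56, and that of C1ql4 from -5.79 to -4.90 in OE-BECs and from -3.55 to -2.62 in OE-LECs. It also moved the median in the library labelled cKO from -0.58 to -0.25, because it adds C1ql4. A 2-fold threshold called 3 of the 6 genes there instead of 0, while the share of all genes called lower went from 2.41% to 5.23% and that called higher from 5.17% to 10.4%. The share of genes called lower moved with the rule: in OE-BECs from 5.27% to 2.18% with a minimum of 20 and 8.81% at 2-fold, in OE-LECs from 2.09% to 0.430% and 4.26%, and in both lines from 0.599% to 0.324% and 1.60%. Size factors from all 6 libraries gave 1.26% in OE-LECs. These factors were 1.65 (Cont) and 1.94 (OE) for the LEC pair, against 0.923 and 1.08 from the pair alone. The minimum of 3 normalized counts therefore asked for more reads, and its part in the change was not tested. Pearson correlation in place of the distance kept 2 of the 18 genes named as most alike, and it named none of Tc2n, Ttyh1, Fbln5 and Dapk2. Depth limits Lrg1 and C1ql4, whose intervals are wide.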
